A study of Mus musculus with 9 samples.

Results

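Age-associated B cells without Tlr9 (KO) and age-associated B cells with a signalling-impaired Tlr9 (P915H) were compared by chromatin accessibility, to ask what the presence of the impaired receptor adds over no receptor. The comparison took the 3 KO and the 3 P915H samples, 6 of the 9 in the series, and all 61540 peaks of the deposited table. The other 3 samples, of cells with intact Tlr9 (WT), entered the fit only through the spread between samples and the term for the replicate number, and their values are given beside the others. KO cells were Tlr9-/- and P915H cells were homozygous for the P915H change. All came from the spleen of MRL/lpr (MRL.Faslpr) bone-marrow chimeras made with a 3-way mixture of marrow and taken at 20 weeks of age, so every group carries the lpr mutation of Fas. Cells were stained with antibodies and sorted by flow cytometry, and each library was made from 20000 to 50000 viable cells. Neither the stains nor the sharing of hosts between samples is stated in the labels. As they also leave out whether the samples of 1 genotype are separate mice, p-values here reflect how far these samples spread, and that spread may be partly technical.

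Tlr9 is an endosomal sensor of DNA with unmethylated CpG sites. After cleavage in the endosome it signals through the adaptor MyD88 to NF-kB, MAP kinases and interferon regulatory factors, and it competes with Tlr7, the RNA sensor, for the trafficking protein Unc93b1. In lupus-prone mice, loss of Tlr9 is known to worsen disease while loss of Tlr7 lessens it, which is why a receptor that is present but signals poorly is of interest beside a missing one. Age-associated B cells are antigen-experienced B cells that carry CD11c (Itgax) and the transcription factor T-bet (Tbx21), respond to Tlr7 and Tlr9 ligands, and carry little of CD21 (Cr2) and CD23 (Fcer2a), the receptors of follicular B cells.

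In ATAC-seq a transposase cuts open DNA, and a peak's value counts how often it was cut. Values here are log2 CPM, the reads in a peak after each sample's reads in peaks are scaled to the same total. A difference is P915H minus KO on that scale, so a positive one means a more accessible site with the impaired receptor than without any receptor. A peak was called where limma's test across all 61540 peaks, with the replicate number as a term, gave a Benjamini-Hochberg adjusted p under 0.05. A site open in fewer cells and a site less open in each cell cannot be told apart in such bulk samples.

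The 5 defining markers checked for age-associated B cells (Itgax, Itgam, Tbx21, Cxcr3 and Zeb2) all had peaks, with a summed CPM of 507 to 533 in KO, 487 to 527 in P915H and 518 to 533 in WT, and all 10 genes of the B cell marker list had peaks too. Several defining genes of other cells had none: Cd4, Cd8a, Bcl11b and Themis for T cells, Lyz2 and Lyz1 for macrophages, 7 of 10 neutrophil markers (S100a8, S100a9, Mpo, Elane, Retnlg, Camp and Ngp) and the globin genes. Peaks were present, however, at 15 of 19 T cell markers, 11 of 13 macrophage and monocyte markers and 7 of 10 natural killer cell markers. The same held for 9 of 11 dendritic cell markers, 8 of 11 stromal and endothelial cell markers and 5 of 12 erythroid and platelet markers. Summed CPM over the peaks of the T cell markers was 660 to 727 in KO and 720 to 760 in P915H, and over the natural killer cell markers 281 to 289 and 308 to 334. Macrophage and monocyte markers gave 614 to 678 and 706 to 737, and B cell markers themselves 2244 to 2427 and 2474 to 2604. Dendritic cell markers went the other way, with 892 to 909 in KO and 794 to 842 in P915H, and 12 of the 20 lower peaks in that list belonged to Tcf4, which B cells also use. Without Tcf4, 8 of the 53 remaining peaks of the list (15.1%) were lower. Called peaks, higher and then lower, are to be read against 8.97% and 6.55% of all peaks. They were 6 and 4 of 52 in the T cell list (11.54% and 7.69%), 4 and 1 of 24 in the natural killer list (16.7% and 4.17%) and 6 and 4 of 53 in the macrophage list (11.3% and 7.55%). The dendritic cell list had 6 and 20 of 85 (7.06% and 23.5%) and the B cell list 21 and 8 of 154 (13.6% and 5.19%). In the neutrophil, erythroid and stromal lists they were 0 and 2 of 8, 1 and 0 of 10, and 3 and 4 of 34. The summed CPM overlapped between KO and P915H for the defining age-associated B cell markers and the T cell markers and not for the other 4 lists with sums given, and the part of other cells in the results below was not tested.

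None of the 3 peaks assigned to the Tlr9 gene was called. The peak over its start (chromosome 9, 106222230 to 106222641, build mm10) read 6.02, 5.75 and 5.86 in KO replicates 1 to 3, 6.0, 6.11 and 5.97 in P915H and 5.97, 6.13 and 6.16 in WT. The KO and P915H values overlapped, and the difference was 0.15 (SE 0.10, limma adjusted p = 0.376). Another, within the gene at 106222910 to 106223290, differed by -0.16 (SE 0.14, limma adjusted p = 0.484). Which part of the gene the knockout lacks is not given, so these peaks do not check the genotype. Of the 616 peaks within 10 Mb of Tlr9, 43 were called higher (6.98%) and 31 lower (5.03%). Both shares were below those over all peaks, 8.97% and 6.55%.

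Across the genome, 9548 of 61540 peaks (15.5%) were called, of which 5520 (8.97%) were higher in P915H and 4028 (6.55%) lower. The median difference over all peaks was 0.01. As each sample is scaled to the same total, a change in overall accessibility could not be seen in these values. Called peaks were moderate in size. Those higher in P915H had a median difference of 0.99, or 1.98-fold, with 2695 of them at least 2-fold and 210 at least 4-fold. Those lower had a median of -0.996, or 1.99-fold, with 1984 at least 2-fold and 353 at least 4-fold. The 3 KO and 3 P915H values did not overlap at 5512 of the higher and 4027 of the lower calls. Over the whole table, values without overlap were at 13960 peaks (22.7%) with P915H above and 11998 (19.5%) with P915H below, called or not. Peaks that stayed called when any 1 of the 9 samples was left out numbered 1164 higher (1.89% of all peaks) and 1354 lower (2.2%).

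The size of the difference at called peaks varied between replicate numbers. These peaks were chosen for the gap between KO and P915H, so the medians describe them and test nothing. At the peaks called higher, the median of the difference between same-numbered samples was 0.59 for replicate 1, 1.20 for replicate 2 and 1.08 for replicate 3. At those called lower it was -0.89, -1.08 and -0.96. The pair with replicate number 1 thus lay closest in both sets. Leaving out KO replicate 1 gave 6820 higher and 3518 lower calls. Leaving out P915H replicate 2 gave the fewest, 1413 and 1812, and the counts were 2045 and 1772 without KO replicate 2, 1746 and 1824 without KO replicate 3, 3580 and 2361 without P915H replicate 1, and 2290 and 2441 without P915H replicate 3.

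The samples with an intact receptor lay mostly between the others at called peaks. The WT mean was between the KO and the P915H mean at 5272 of the 5520 peaks called higher (95.5%) and at 3881 of the 4028 called lower (96.4%), beside 52.5% of all peaks. It was nearer to P915H than to KO at 87.2% of the former and at 50.3% of the latter, beside 59.9% of all peaks. Median levels at the peaks called higher were 2.25 in KO, 3.00 in WT and 3.30 in P915H, and at those called lower 3.17, 2.64 and 2.09. Both sets were chosen for the gap between KO and P915H, so these levels describe them and test nothing.

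**Figure D1:**
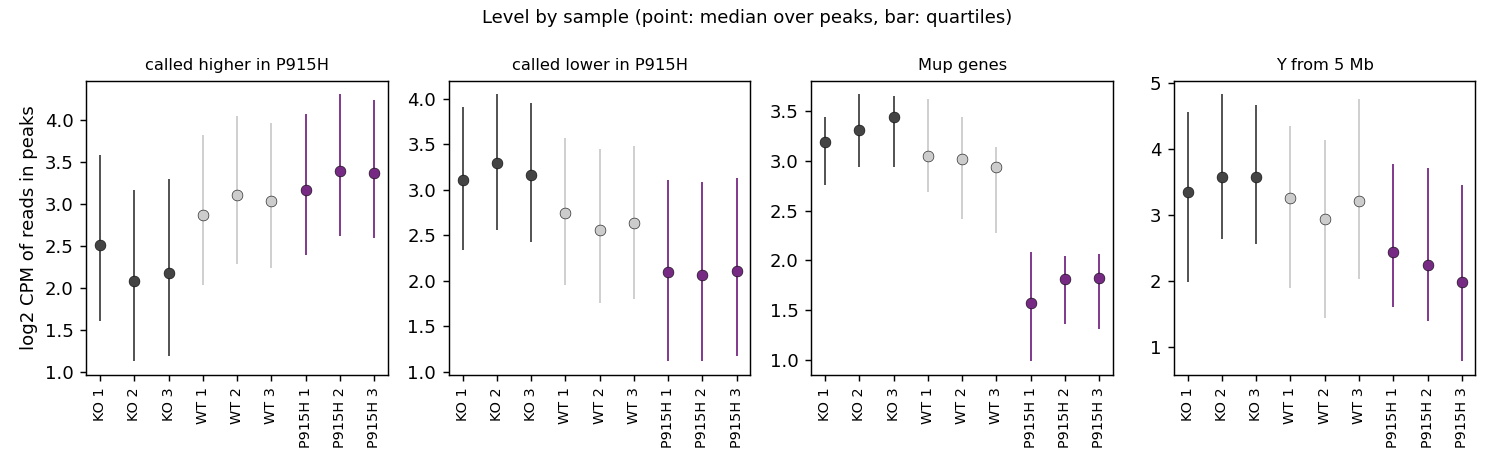
Median (point) and quartiles (bar) of the log2 CPM over peaks, in each of the 9 samples, for the 5520 peaks called higher in P915H, the 4028 called lower, the 41 peaks of the Mup genes and the 134 peaks of chromosome Y from 5 Mb on. In the first 2 panels the WT samples lie between the others, while in the last 2 they lie nearer to KO than to P915H.

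The differences lay away from gene starts. Of 9589 peaks that overlapped a window from 250 bases before to 50 bases after a RefSeq gene start, 159 (1.66%) were called higher and 265 (2.76%) lower. Of the 51951 other peaks, 10.3% were called higher and 7.24% lower. Within gene bodies the counts were 3312 higher and 2234 lower of 31890 (10.4% and 7.0%), and between genes but within 100 kb of one they were 1660 and 1329 of 17779 (9.34% and 7.48%). The 2282 peaks more than 100 kb from any gene had the largest share of higher calls of these 4 classes, 389 (17.0%), with 200 lower (8.76%).

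Peaks at gene starts are stronger than others, with a median log2 CPM of 4.59 against 3.03 over all peaks, so the classes were also compared at matched levels. In the strongest quintile of all peaks, 0.714% of 5045 start peaks were called higher and 1.37% lower, against 8.94% and 3.33% of 7263 other peaks. In the weakest quintile the shares were 6.17% and 6.17% of 519 start peaks, and 12.8% and 10.6% of 11789 others. In each quintile and in both directions the share at starts was the smaller one. With 1 sample left out, the start peaks called numbered 118 (without KO replicate 3) to 648 (without WT replicate 3), and their share, 1.23% to 6.76%, stayed below that of other peaks, 5.98% to 19.9%, in each such fit.

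**Figure D2:**
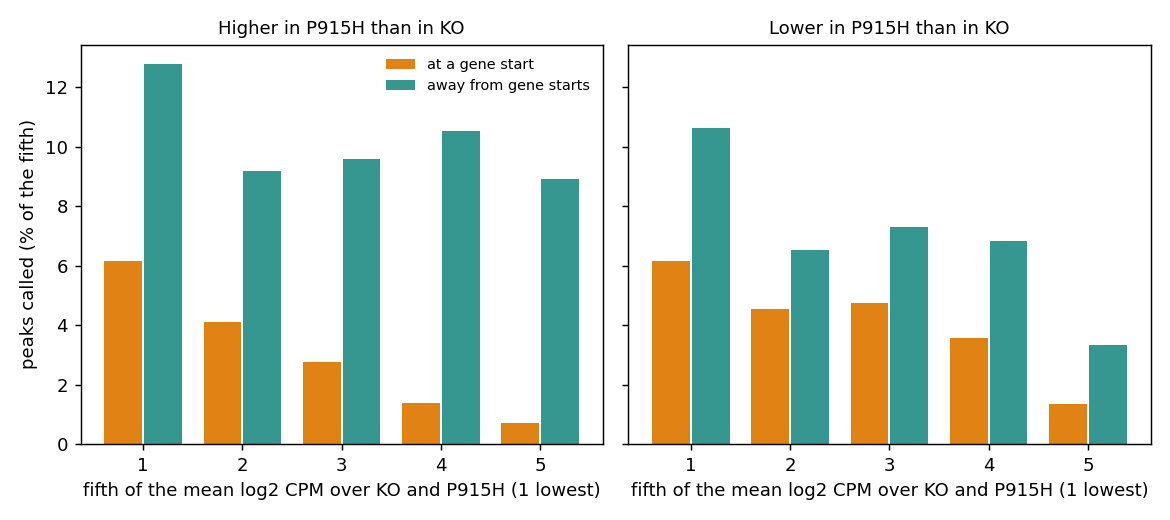
Percentage of peaks called higher (left) and lower (right) in P915H than in KO, for peaks at a gene start and away from one, in quintiles of the mean log2 CPM over the 6 KO and P915H samples. In each quintile the bar for gene starts is below the bar for other peaks, and in the strongest quintile 0.714% of start peaks against 8.94% of the others were called higher.

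Among the start peaks, calls were most frequent where the sequence around the start holds few CpG sites. Starts rich in CpG are typical of housekeeping genes, and starts with few are typical of genes used in particular tissues. With under 5 CpG in the window, 33 of 394 start peaks (8.38%) were called higher and 25 (6.35%) lower. With 5 to 14 CpG the counts were 65 and 81 of 1878 (3.46% and 4.31%), and with 15 or more they were 61 and 159 of 7317 (0.834% and 2.17%). The median level of these 3 classes was 3.64, 4.31 and 4.71, so level and CpG content move together here, and their parts were not separated. The median window held 9.5 CpG where the peak was called higher (152 windows), 17 where it was called lower (255) and 22 where it was not called (8532).

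Short motifs in the start windows were counted on both strands, as a description, and only some of those counted are given. The RUNX letters TGTGGT were in 23.7% of the windows with a higher peak, 13.7% of those with a lower peak, 12.2% of those with a peak not called and 16.8% of all 32851 start windows. The E-box CAGCTG was in 21.1%, 22.0%, 14.1% and 16.3%, and the AP-1 letters TGANTCA in 3.29%, 7.84%, 4.24% and 7.81%. The SP and KLF letters GGGCGG, which hold a CpG, were in 45.4%, 66.3%, 68.7% and 35.7%. A match is not a bound site, and no test was made. The windows with a higher peak also held fewer CpG sites than those with a peak not called, and the part of this was not separated.

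The start peaks with the largest differences, among those of sufficient level, were 6 in each direction. Higher in P915H were Txk, a Tec-family kinase gene of T and natural killer cells, Clec4a3, a lectin receptor gene, Zfp2, a zinc finger gene, Runx3, a transcription factor of lymphocyte differentiation, Cd244a, a SLAM-family receptor gene, and Atg4c, which encodes a protease of autophagy. Lower ones were Tnfsf13b, the gene of the B cell survival factor BAFF, Cdkn2a, the locus of the cell cycle inhibitors p16 and p19Arf, Kcnt2, a potassium channel gene, Myh14, a myosin gene, Gramd2 and Dnaaf3.

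The sequences before 5 of these or other named starts are shown from RefSeq (GRCm38.p6), with CpG sites in capitals. Each is the 250 bases before the start, 5′ to 3′ on the gene's strand, at chr4:135120395-135120644 for Runx3 (plus strand), chr5:72752778-72753027 for Txk, chr1:195176720-195176969 for Cr2, chr4:89282193-89282442 for Cdkn2a and chr13:55528539-55528788 for Dok3 (all minus strand). They hold 8, 3, 11, 7 and 3 CpG sites in that order. The peak was called higher in P915H at the first 3 and lower at the last 2. The Runx3 sequence holds 2 matches to the RUNX letters.
Runx3: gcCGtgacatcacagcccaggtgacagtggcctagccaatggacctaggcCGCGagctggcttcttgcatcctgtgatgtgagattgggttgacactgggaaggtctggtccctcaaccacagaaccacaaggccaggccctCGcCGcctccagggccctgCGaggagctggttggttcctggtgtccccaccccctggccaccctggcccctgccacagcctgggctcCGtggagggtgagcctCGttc
Txk: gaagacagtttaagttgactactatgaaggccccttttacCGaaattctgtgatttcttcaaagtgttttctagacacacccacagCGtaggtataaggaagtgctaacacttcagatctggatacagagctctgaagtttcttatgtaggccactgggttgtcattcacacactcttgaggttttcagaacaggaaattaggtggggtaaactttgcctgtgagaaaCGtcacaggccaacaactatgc
Cr2: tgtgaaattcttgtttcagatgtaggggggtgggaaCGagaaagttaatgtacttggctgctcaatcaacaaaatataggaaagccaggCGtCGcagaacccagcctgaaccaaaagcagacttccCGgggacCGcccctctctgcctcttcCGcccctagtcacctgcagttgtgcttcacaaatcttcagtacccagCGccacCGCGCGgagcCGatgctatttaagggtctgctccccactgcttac
Cdkn2a: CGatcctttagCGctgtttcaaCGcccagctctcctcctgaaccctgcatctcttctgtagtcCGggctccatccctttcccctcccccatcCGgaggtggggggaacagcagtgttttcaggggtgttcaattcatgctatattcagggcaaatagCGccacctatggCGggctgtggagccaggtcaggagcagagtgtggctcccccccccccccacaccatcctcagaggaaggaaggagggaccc
Dok3: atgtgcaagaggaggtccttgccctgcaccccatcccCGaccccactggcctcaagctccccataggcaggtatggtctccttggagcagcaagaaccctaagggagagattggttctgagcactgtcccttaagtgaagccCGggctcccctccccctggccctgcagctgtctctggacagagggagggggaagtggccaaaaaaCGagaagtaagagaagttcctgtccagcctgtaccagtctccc

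The start of Runx3 (peak on chromosome 4, 135120379 to 135120588) read 4.61, 4.18 and 4.07 in KO, 5.45, 5.69 and 5.60 in P915H and 4.96, 5.15 and 5.35 in WT. All P915H values lay above all KO values, with a difference of 1.29 (SE 0.16, limma adjusted p = 0.00185). Over the gene, 2 of 29 peaks were called higher, this start included, and 1 lower, with a median difference of 0.02. The Txk start read 3.54, 2.15 and 2.89 in KO and 4.22, 5.08 and 4.61 in P915H, a difference of 1.78 (SE 0.33, limma adjusted p = 0.0075). At Cr2, which encodes the complement receptor CD21, the start read 4.69, 4.54 and 4.39 in KO, 5.23, 5.18 and 5.22 in P915H and 4.86, 5.06 and 5.18 in WT. Its difference of 0.67 (SE 0.13, limma adjusted p = 0.00742) was smaller, and the P915H values lay close together above KO.

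Among the starts called lower, Tnfsf13b (chromosome 8, 10006452 to 10006696) read 4.35, 4.47 and 4.39 in KO, 2.95, 2.96 and 3.04 in P915H and 3.94, 3.81 and 3.81 in WT. The 3 genotypes did not overlap, and the difference was -1.42 (SE 0.13, limma adjusted p = 0.000436). All 3 peaks of the gene were called lower. Cdkn2a read 4.00, 4.34 and 4.05 in KO and 2.72, 2.93 and 2.70 in P915H, a difference of -1.35 (SE 0.19, limma adjusted p = 0.00258), and 3 of its 4 peaks were lower. Dok3, an adaptor gene that restrains B cell receptor signalling, read 4.55, 4.79 and 4.51 in KO and 3.86, 3.64 and 3.73 in P915H, a difference of -0.87 (SE 0.14, limma adjusted p = 0.00378).

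Pathways were described by 32 gene lists, each taken as all peaks assigned to its genes, and counts are to be read against the 8.97% higher and 6.55% lower over all peaks. The lists were chosen with earlier results of these data known, so their shares, also with a sample left out, describe them and test nothing. Lists with the largest shares of higher calls were those of resting and follicular B cell genes, cyclic AMP and phosphodiesterase genes, Notch and Wnt genes, calcium and NFAT signalling genes and PI3K, AKT and mTOR genes. The largest shares of lower calls were in the lists of cytokine and chemokine genes, age-associated B cell genes and plasmablast and plasma cell genes.

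**Figure D3:**
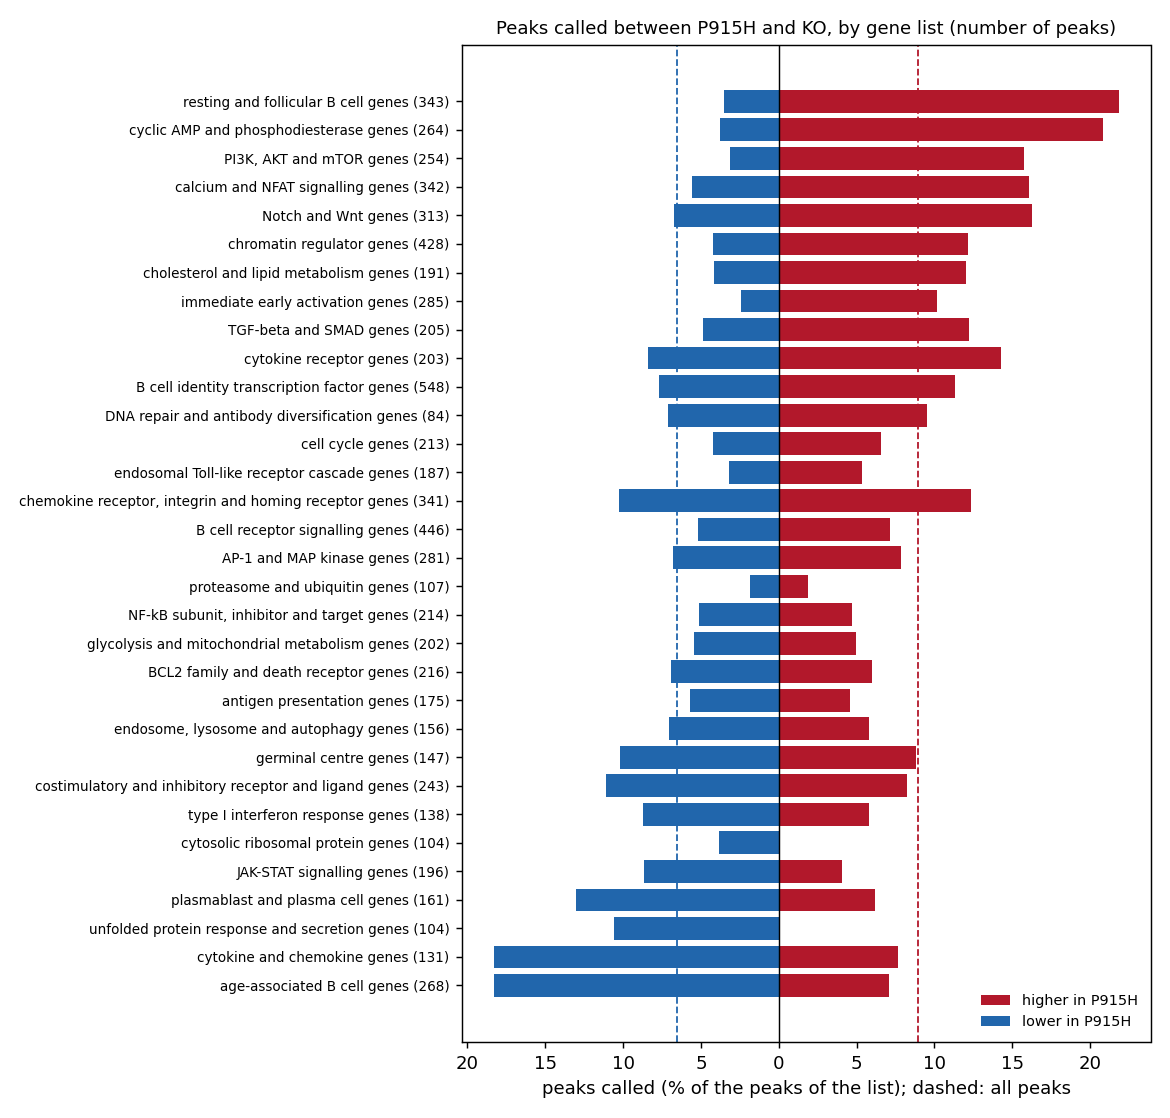
Percentage of the peaks of each of the 32 gene lists called higher (right, red) and lower (left, blue) in P915H than in KO, with the number of peaks of the list in parentheses and dashed lines at the percentages over all peaks. The resting and follicular B cell list reaches 21.9% higher against 3.50% lower, and the cytokine and age-associated B cell lists each reach 18.3% lower.

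Of the 343 peaks of resting and follicular B cell genes, 75 (21.9%) were called higher in P915H, 12 (3.50%) lower and 256 did not pass, with a median difference of 0.24. Of the 21 genes with a peak, 12 had higher peaks alone, 1 lower peaks alone, 5 both and 3 none. Foxp1, a forkhead transcription factor gene that keeps mature B cells at rest, gave 30 of the 75, and without it 45 of 267 peaks (16.9%) were higher. The share of higher calls in the list exceeded that over all peaks in each of the 9 fits with a sample left out, with 23 (without KO replicate 3) to 99 (without KO replicate 1) higher peaks.

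Medians by gene show how far such genes moved as a whole. Here and below, the genes were picked with their values known, so gaps between their KO and P915H medians describe them and test nothing. Over the 76 peaks of Foxp1 the median log2 CPM was 2.83, 2.35 and 2.57 in KO, 3.05, 3.24 and 3.29 in P915H and 3.07, 3.19 and 2.99 in WT, and the median difference was 0.50. Satb1, a chromatin organizer gene, had 6 of 8 peaks higher, with medians of 2.44, 1.81 and 2.09 in KO and 2.98, 3.15 and 3.14 in P915H. P915H lay above KO in all 3 replicates of both genes. Ccr6, a chemokine receptor gene of follicular B cells, had 6 of 18 peaks higher (median difference 0.49) and Foxo1, which holds lymphocytes at rest, 6 of 29 (0.34). Bach2, which restrains the plasma cell fate, was mixed, as 9 of its 58 peaks were higher, 3 were lower and the median difference was 0.03. Tcf7, the gene of TCF-1, went the other way, with 4 of 9 peaks lower and a median of -0.31.

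A peak in the body of Foxp1 (chromosome 6, 99350661 to 99350872) read 3.34, 2.95 and 2.74 in KO and 4.48, 4.59 and 4.61 in P915H. The WT values, 3.80, 4.09 and 4.28, lay between, and the difference was 1.55 (SE 0.19, limma adjusted p = 0.0015). A peak 12516 bp from Ccr6 (chromosome 17, 8223310 to 8223525) read 2.96, 2.64 and 2.48 in KO, 3.82, 4.00 and 4.29 in P915H and 3.70, 3.85 and 3.72 in WT, a difference of 1.34 (SE 0.18, limma adjusted p = 0.00223). Neither peak overlapped between KO and P915H, as was so at 5512 of the 5520 higher calls. Over the 4 peaks of Cr2 and Fcer2a, whose products age-associated B cells carry little of, 2 were called higher, 1 at each gene, and the summed CPM was 36.7 to 42.6 in KO, 48.1 to 55.0 in WT and 57.6 to 59.8 in P915H. Those 3 ranges did not overlap, and with a sample left out 0 to 2 of the 4 peaks were called.

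Cyclic AMP is the second messenger of receptors such as those for prostaglandin E2 and adenosine, and phosphodiesterases break it down. Of the 264 peaks of this list, 55 (20.8%) were called higher and 10 (3.79%) lower. Pde4d, a cyclic AMP phosphodiesterase gene, gave 21 of the 55, and without it 34 of 239 (14.2%) were higher. Pde7b had 9 of 13 peaks higher, Pde4b 4 of 20, Pde2a 2 of 12, and the adenylate cyclase gene Adcy7 3 of 13, with no lower peak in these 4, while Pde4a had 2 of 10 lower. Akap13, which anchors protein kinase A, had 5 higher and 4 lower of 58. The list's share of higher calls exceeded that over all peaks in each of the 9 fits with a sample left out (24 to 68 peaks).

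In Pde4d most peaks went one way. Its 25 peaks spread over 1240 kb, 21 were called higher, with differences from 0.71 to 2.3, and 14 of them stayed called in all 9 fits without a sample. The gene median was 2.26, 1.81 and 1.60 in KO, 2.66, 2.99 and 2.77 in WT and 3.04, 3.15 and 3.46 in P915H, with no overlap between the genotypes. One of its peaks (chromosome 13, 109781556 to 109781768) read 4.28, 3.69 and 3.56 in KO and 5.23, 5.45 and 5.57 in P915H, a difference of 1.57 (SE 0.20, limma adjusted p = 0.00183). A peak within Pde2a, whose enzyme is stimulated by cyclic GMP, read 3.42, 2.05 and 2.48 in KO and 4.47, 5.22 and 4.78 in P915H, a difference of 2.17 (SE 0.34, limma adjusted p = 0.00382).

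Calcium and NFAT genes relay antigen receptor signals from the calcium stores to transcription. In this list 55 of 342 peaks (16.1%) were called higher and 19 (5.56%) lower. Camk2d, a calmodulin-dependent kinase gene, had 9 of 30 peaks higher and Nfatc2 4 of 18, with none lower. Itpkb, which phosphorylates the calcium-releasing inositol trisphosphate, had 9 higher and 1 lower of 26, and Itpr1, the receptor of that messenger, 9 higher and 2 lower of 34. Of the other receptors of that messenger, Itpr3 had 4 of 12 higher and Itpr2 3 of 33 lower. Nfatc1 had 3 higher and 5 lower of 34. A peak within Nfatc2 (chromosome 2, 168543065 to 168543274) read 2.26, 2.47 and 2.10 in KO, 3.65, 3.59 and 3.44 in P915H and 3.39, 3.24 and 3.76 in WT. Its KO values lay below all 6 others, and the difference was 1.29 (SE 0.19, limma adjusted p = 0.00296).

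The PI3K, AKT and mTOR pathway drives growth and metabolism after receptor stimulation. Of its 254 peaks, 40 (15.7%) were called higher and 8 (3.15%) lower, and some of the higher ones belonged to genes that restrain it. Sesn1, a stress-induced inhibitor of mTOR complex 1, had 5 higher and 1 lower of 10, and Sgk3, a kinase gene, had 4 of 9 higher. Phlpp1, whose product dephosphorylates AKT, had 2 higher and 1 lower of 21 and a median difference of -0.02. Its clearest peak read 2.28, 1.80 and 1.88 in KO and 3.23, 3.40 and 3.49 in P915H, a difference of 1.39 (SE 0.19, limma adjusted p = 0.00261). Akt2, one of the AKT kinase genes, had 3 of 5 higher. With P915H replicate 2 left out only 5 peaks of the list were called higher, with KO replicate 3 left out 9, and in 8 of the 9 such fits the share exceeded that over all peaks.

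Notch and Wnt genes gave 51 higher (16.3%) and 21 lower (6.71%) of 313 peaks. Hes1, a repressor gene induced by Notch, had 8 of 15 peaks higher, Maml3, a coactivator gene, 8 higher and 1 lower of 24, and Dtx1, a Notch target gene, 4 of 11 higher. Jag1, a ligand gene, had all 4 peaks lower, Rbpj, the gene of the DNA-binding partner of Notch, 3 of 20 lower, and the coactivator gene Maml2 4 higher and 3 lower of 21. The largest of the Hes1 peaks lay 77786 bp away (chromosome 16, 30145582 to 30145813), so its link to Hes1 rests on distance alone. It read 3.56, 2.51 and 3.15 in KO, 4.78, 5.35 and 5.04 in P915H and 4.18, 4.65 and 4.32 in WT, a difference of 1.98 (SE 0.26, limma adjusted p = 0.00204).

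Of the 205 peaks of TGF-beta and SMAD genes, 25 (12.2%) were called higher and 10 (4.88%) lower, and Smad3, the gene of a receptor-activated SMAD, held 13 of the 25. Without Smad3, 12 of 182 (6.59%) were higher, below the share over all peaks. The gene median of Smad3 was 2.29, 2.20 and 2.19 in KO, 2.77, 3.00 and 2.95 in WT and 3.17, 3.43 and 3.17 in P915H, and the 3 genotypes did not overlap. A peak 2543 bp from Tgfb1, the ligand gene, read 5.14, 4.73 and 4.88 in KO and 5.83, 5.97 and 5.88 in P915H (difference 0.98, SE 0.13, limma adjusted p = 0.00208). Ltbp1, whose product stores latent TGF-beta in the matrix, had 3 of 7 peaks lower.

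Regulators of chromatin had more higher than lower calls. Their list had 52 higher (12.1%) and 18 lower (4.21%) of 428. Arid1b, a subunit gene of the BAF remodelling complex, had 14 higher and 2 lower of 56 and Chd7, a remodeller gene, 7 higher and 1 lower of 35, while Ezh2, the Polycomb methyltransferase gene, had 3 of 8 lower. Without Arid1b the chromatin list had 38 higher peaks of 372 (10.2%).

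B cell identity transcription factor genes moved in both directions, with 62 higher (11.3%) and 42 lower (7.66%) of 548. Zfp608, a zinc finger gene, had 16 of 24 peaks higher and none lower, Runx1 9 higher and 1 lower of 31, Ebf1 7 and 2 of 52, Pax5 5 and 2 of 26, and Bcl11a 5 of 37 higher. Without Zfp608, 46 of 524 (8.78%) were higher, close to the share over all peaks. Tcf4, the gene of the E protein E2-2, had 12 lower and 1 higher of 32, and Ikzf3, the gene of Aiolos, 4 of 17 lower. The gene median of Zfp608 was 3.08, 2.68 and 2.81 in KO and 3.50, 3.58 and 3.76 in P915H, and that of Tcf4 2.66, 2.84 and 2.52 against 2.21, 2.33 and 2.23. Neither overlapped. A peak 4447 bp from Irf8 (chromosome 8, 120731700 to 120731911) was among the clearest single ones, with 4.36, 4.35 and 4.28 in KO, 2.95, 2.66 and 2.85 in P915H and 3.62, 3.91 and 3.79 in WT, a difference of -1.51 (SE 0.15, limma adjusted p = 0.000601). Of the 34 Irf8 peaks, 2 were called, both lower.

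Genes of the first wave of activation had 29 higher (10.2%) and 7 lower (2.46%) of 285 peaks. Nr4a1, an orphan nuclear receptor gene induced by antigen receptor signals, had 6 of 10 higher, and a peak within it (chromosome 15, 101258448 to 101258734) read 3.61, 2.92 and 3.07 in KO, 4.38, 4.68 and 4.65 in P915H and 4.01, 4.40 and 4.27 in WT, a difference of 1.37 (SE 0.20, limma adjusted p = 0.00305). Klf10 had 4 of 12 and Ier5 3 of 29 higher. Myc, the growth regulator gene, had 3 of 19 lower, among them one 53319 bp away with 3.70, 4.19 and 3.84 in KO and 2.42, 2.38 and 2.53 in P915H. This list stood close to all peaks in its higher calls, and its share exceeded theirs in 5 of the 9 fits with a sample left out.

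Cytokine receptor genes had 29 higher (14.3%) and 17 lower (8.37%) of 203. Il6st, the shared signalling chain gp130, had 4 of 7 higher, while Il6ra, the chain that binds interleukin-6, had 3 of 11 lower. Both peaks of Il12rb2, an interleukin-12 receptor chain, were higher, and its start read 4.52, 4.43 and 4.35 in KO and 5.16, 5.26 and 5.43 in P915H. The 29 were down to 4 without KO replicate 2 or KO replicate 3 and to 5 without P915H replicate 2. Chemokine receptor, integrin and homing receptor genes had many calls of both kinds, 42 higher (12.3%) and 35 lower (10.3%) of 341. Higher ones were at Ccr6, at Itgb3 (5 higher, 1 lower of 12) and at Ccr7 (3 of 17). Lower ones were at Cxcr4 and at the integrin gene Itgb1 (5 of 20 each) and at Cd9 (4 lower, 1 higher of 12).

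**Figure D4:**
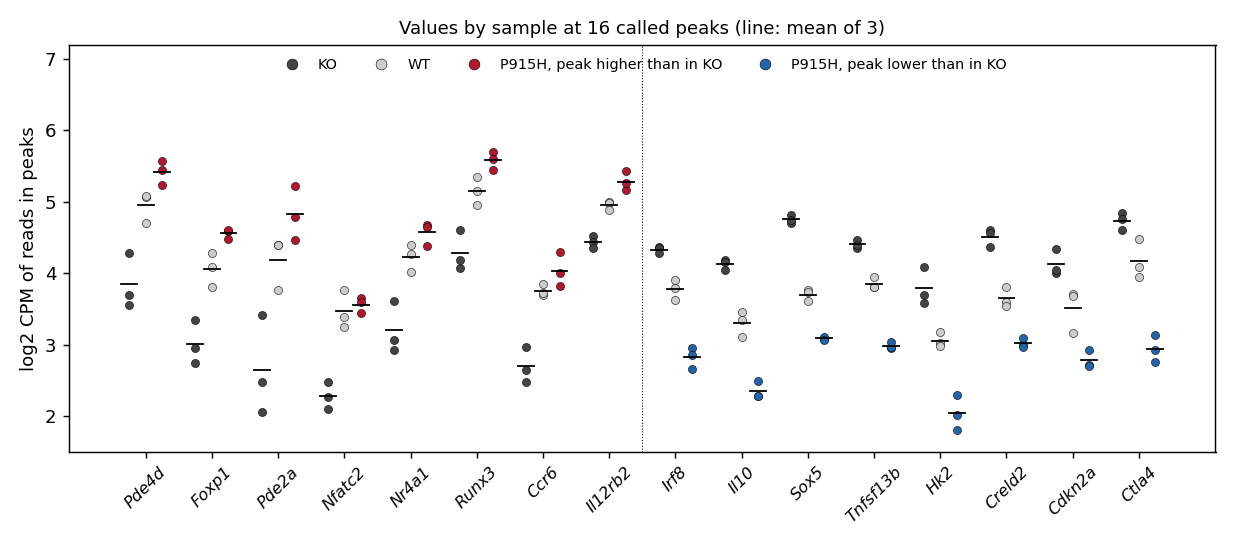
Log2 CPM in each KO (dark), WT (light) and P915H (coloured) sample at 16 called peaks, named by their gene, with a line at the mean of 3 samples. At the 8 peaks on the left each P915H value is above each KO value, at the 8 on the right each is below, and the WT means lie between.

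In the other direction, the age-associated B cell list itself had more lower than higher calls, with 49 lower (18.3%) and 19 higher (7.09%) of 268 peaks. Zbtb20, a zinc finger transcription factor gene, gave 20 of the 49, and without it 29 of 232 (12.5%) were lower. Sox5, a transcription factor gene, had 7 lower and 2 higher of 25, Cd86 and Cd80, the genes of the B7 costimulators, 3 of 17 and 3 of 9 lower, and Fas, the death receptor gene mutated in this strain, 3 of 9 lower. Of the defining genes of these cells, Tbx21 had 2 of 14 peaks higher (median difference 0.24), Itgam 2 of 7 higher (-0.11), Itgax 1 higher and 1 lower of 8 (-0.05), Zeb2 2 higher and 3 lower of 31 (-0.32) and Cxcr3 no call among 4 (-0.36). Over these 5 genes the median was -0.16, and over the whole list it was -0.14. The list's share of lower calls exceeded that over all peaks in each of the 9 fits without a sample (27 to 55 peaks).

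Zbtb20 had a median of 3.04, 2.93 and 2.84 in KO, 2.58, 2.41 and 2.63 in WT and 2.23, 2.27 and 2.36 in P915H over its 36 peaks, without overlap of the genotypes, although 3 of its peaks were called higher. The gene was named for its many lower calls, so the gap between KO and P915H follows from that choice. A peak in the body of Sox5 (chromosome 6, 144659476 to 144659685) read 4.70, 4.82 and 4.75 in KO, 3.76, 3.61 and 3.73 in WT and 3.08, 3.11 and 3.07 in P915H. The spread within each genotype was small beside the gaps between them, and the difference was -1.67 (SE 0.12, limma adjusted p = 0.000326). The Fas peak with the smallest p (chromosome 19, 34299335 to 34299542) read 2.66, 2.87 and 2.82 in KO, 2.39, 2.11 and 2.40 in WT and 1.18, 1.26 and 1.02 in P915H, a difference of -1.63 (SE 0.20, limma adjusted p = 0.00167).

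Cytokine and chemokine genes had 24 lower (18.3%) and 10 higher (7.63%) of 131 peaks. Il10, whose product restrains immune responses, had 7 of 11 lower and none higher, Tnfsf9, the gene of 4-1BB ligand, 4 of 6, Tnfsf13b 3 of 3, Il6 3 of 8 and Tnfsf8, the gene of CD30 ligand, 2 of 4. Ccl3 and Il12b had 2 higher peaks each and none lower. Without Il10, 17 of 120 (14.2%) were lower, and the lower calls numbered 11 (without KO replicate 3 or P915H replicate 2) to 27 with a sample left out.

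The gene median of Il10 was 3.69, 3.73 and 3.72 in KO, 3.11, 2.98 and 3.24 in WT and 2.55, 2.76 and 2.69 in P915H. That of Tnfsf9 was 2.10, 2.48 and 2.58 in KO, 2.36, 2.13 and 2.16 in WT and 1.80, 1.76 and 1.64 in P915H. Il10 separated all 3 genotypes, whereas the WT values of Tnfsf9 overlapped KO. A peak 16224 bp from Il10 (chromosome 1, 131003199 to 131003621) read 4.19, 4.16 and 4.05 in KO and 2.49, 2.28 and 2.28 in P915H, a difference of -1.79 (SE 0.16, limma adjusted p = 0.00043).

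Plasmablast and plasma cell genes had 21 lower (13.0%) and 10 higher (6.21%) of 161 peaks. Tent5c, a poly(A) polymerase gene of plasma cells, had 5 of 17 lower, Irf4, the transcription factor gene needed for that fate, 4 of 15 lower, Fut8, a fucosyltransferase gene, 4 lower and 1 higher of 19, and Ell2, an elongation factor gene of antibody secretion, 2 of 8 lower. Prdm1, the gene of Blimp-1, had 1 higher and 1 lower of 22 and a median difference of 0.00. Slamf7, a surface receptor gene, had 4 of 9 higher, and both peaks of Cd93 were higher. A peak within Tent5c (chromosome 3, 100485532 to 100485755) read 4.85, 5.13 and 4.88 in KO, 4.29, 4.25 and 4.24 in WT and 3.45, 3.22 and 3.47 in P915H, and the 3 genotypes did not overlap. The Cd93 peak read 2.57, 1.67 and 1.56 in KO and 3.88, 4.33 and 4.30 in P915H (difference 2.24, SE 0.28, limma adjusted p = 0.00179).

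Genes of the unfolded protein response and secretion, which expand in antibody-secreting cells, had 11 lower (10.6%) and 0 higher of 104 peaks. Sec24d, a coat protein gene of vesicles leaving the endoplasmic reticulum, had 5 of 7 lower and Eif2ak3, the gene of the stress sensor PERK, 3 of 7, and 25 of the 30 genes had no called peak. Start peaks, which were seldom called, made up 27.9% of this list. A peak in Creld2 (chromosome 15, 88823438 to 88823636), a stress-induced gene of that compartment, read 4.37, 4.61 and 4.56 in KO and 3.00, 2.97 and 3.09 in P915H, a difference of -1.50 (SE 0.14, limma adjusted p = 0.000569). Without Sec24d, 6 of 97 peaks (6.19%) were lower, near the share over all peaks.

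Costimulatory and inhibitory receptor genes had 27 lower (11.1%) and 20 higher (8.23%) of 243. Ctla4, the inhibitory receptor gene, had 6 of 12 lower, and without it 21 of 231 (9.09%) were lower. Its median was 3.52, 3.49 and 3.52 in KO, 2.95, 2.99 and 2.59 in WT and 2.19, 2.45 and 2.33 in P915H. Pdcd1, the gene of PD-1, had 2 of 6 lower, whereas Pdcd1lg2, the gene of its ligand PD-L2, had 5 higher and 2 lower of 17, and Cd83, an activation marker gene, 4 of 28 higher. As Ctla4 and Pdcd1 are best known from T cells, the T cell marker list is set beside them: 6 of its 52 peaks were higher and 4 lower. The Cd3g start had 2.12, 2.43 and 2.05 in KO and 0.35, -0.03 and 0.13 in P915H, while the Lat start had 3.28, 2.88 and 3.14 in KO and 4.11, 4.32 and 3.94 in P915H.

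JAK-STAT genes had 17 lower (8.67%) and 8 higher (4.08%) of 196, and interferon response genes 12 lower (8.70%) and 8 higher (5.80%) of 138. Stat5b had 4 of 12 peaks higher, against 2 of 7 of Socs1, a feedback inhibitor gene, lower. Within the interferon list the 2 chains of the receptor, Ifnar2 (3 of 10) and Ifnar1 (2 of 12), had higher peaks alone, whereas Irf1 (3 of 19) had lower ones alone and Irf2 had 5 lower and 2 higher of 28. A peak 42911 bp from Irf1 read 3.80, 4.26 and 4.07 in KO and 2.41, 2.3 and 2.25 in P915H, and a Stat3 peak 4.48, 4.41 and 4.41 against 3.33, 3.40 and 3.29. Both were called lower, with differences of -1.72 and -1.10.

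AP-1 and MAP kinase genes had 22 higher (7.83%) and 19 lower (6.76%) of 281, near the shares over all peaks. Batf3, an AP-1 family gene, had 6 of 12 lower and Dusp10, the gene of a phosphatase that turns off p38 and JNK, 5 of 7 lower. Fos had 3 of 23 higher, and Fosb (2 of 12), Junb (2 of 5) and Dusp2 (2 of 8) also had higher peaks alone. The higher calls at Fos, Fosb, Junb and Dusp2 are few, and none stayed called in all 9 fits without a sample. A peak within Dusp10 (chromosome 1, 184066986 to 184067220) read 4.62, 4.81 and 4.72 in KO, 3.97, 3.81 and 3.86 in WT and 3.39, 3.36 and 3.41 in P915H. All 3 genotypes lay apart, and the difference was -1.33 (SE 0.13, limma adjusted p = 0.000541).

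The receptor's own pathway held few of the calls. In the endosomal Toll-like receptor cascade list, 10 of 187 peaks (5.35%) were called higher and 6 (3.21%) lower, both below the shares over all peaks, and 22 of its 32 genes with a peak had no call. Unc93b1, the trafficking partner, had 2 of 9 lower, Map3k7, the gene of the kinase TAK1, 2 of 8 higher, and the kinase gene Irak2 2 of 13 lower. A peak 1339 bp from Myd88 (chromosome 9, 119334380 to 119334595) read 1.41, 1.07 and 0.70 in KO, 1.79, 1.78 and 2.19 in WT and 2.38, 2.73 and 2.69 in P915H. It is a weak peak, and its difference of 1.54 (SE 0.26, limma adjusted p = 0.00523) was called in all 9 fits without a sample. NF-kB genes had 10 higher (4.67%) and 11 lower (5.14%) of 214, with 3 of 29 peaks of Nfkb1 and 3 of 13 of Nfkbia lower and 2 of 26 of Tnfaip3 higher.

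Germinal centre genes had 15 lower (10.2%) and 13 higher (8.84%) of 147, a share of lower calls above that over all peaks in each of the 9 fits with a sample left out. Rgs13, a G protein regulator gene, had 6 higher and 1 lower of 11 and Cxcr4 5 of 20 lower. Without Cxcr4, 10 of 127 (7.87%) were lower. B cell receptor signalling genes had 32 higher (7.17%) and 23 lower (5.16%) of 446, with Fyn (4 of 15) and Vav3 (3 of 5) higher and Blk 4 lower and 1 higher of 14. Antigen presentation genes had 8 and 10 of 175, of which 4 lower ones were at the immunoproteasome gene Psmb9. The counts were 13 and 15 of 216 for BCL2 family and death receptor genes, 14 and 9 of 213 for cell cycle genes, 8 and 6 of 84 for DNA repair genes and 10 and 11 of 202 for glycolysis and mitochondrial genes.

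For cholesterol and lipid genes the counts were 23 and 8 of 191, with 7 of 23 peaks of Sgms1, a sphingomyelin synthase gene, higher. For endosome, lysosome and autophagy genes they were 9 and 11 of 156, and 8 of the 11 lower ones were among the 10 peaks of Atg7, which encodes an autophagy enzyme. The lists dominated by housekeeping genes had the fewest calls. Cytosolic ribosomal protein genes had 0 higher and 4 lower of 104 and proteasome and ubiquitin genes 2 and 2 of 107. In these 2 lists 31.7% and 29.9% of the peaks were start peaks, against 5.25% in the list of resting and follicular B cell genes.

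Calls were also counted by gene, with no test of whether they gather in genes beyond the share over all peaks. Of 14846 genes with a peak, 4643 had a called one, of which 2338 had higher peaks alone, 1710 lower peaks alone and 595 both. Among 3922 genes with at least 5 peaks, 883 had at least 3 called, and of these 311 went higher alone, 204 lower alone and 368 both ways. Counted as runs of called peaks in 1 direction with gaps of at most 50 kb, there were 504 clusters of at least 3 higher peaks, with 2138 peaks, and 357 clusters of lower peaks, with 1541. The largest were 26 higher peaks over 247 kb of Foxp1 (chromosome 6, 99188492 to 99435519) and 20 lower ones over 191 kb of Zbtb20 (chromosome 16, 43383179 to 43574307).

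Beyond the genes above, Spred2, an inhibitor gene of the RAS and MAP kinase path, had 12 of 20 peaks higher, Sorl1, a sorting receptor gene, 12 of 25, and Dse, which encodes an epimerase of dermatan sulfate, 8 of 8. All 6 peaks of Lhfp and all 5 of Agap1 were higher too. On the lower side were Spon1, an extracellular matrix gene, with 11 of 13, Cadm1, an adhesion molecule gene, with 11 of 16, and Nr3c2, the mineralocorticoid receptor gene, and Cdk14, a cyclin-dependent kinase gene, each with 8 of 8. Many peaks of these last 4 genes were weak in P915H: the gene medians were 0.83, 1.26, 1.25 and 0.46 there, against 2.32, 2.74, 2.69 and 2.10 in KO and 1.93, 2.21, 1.97 and 1.27 in WT.

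**Figure D5:**
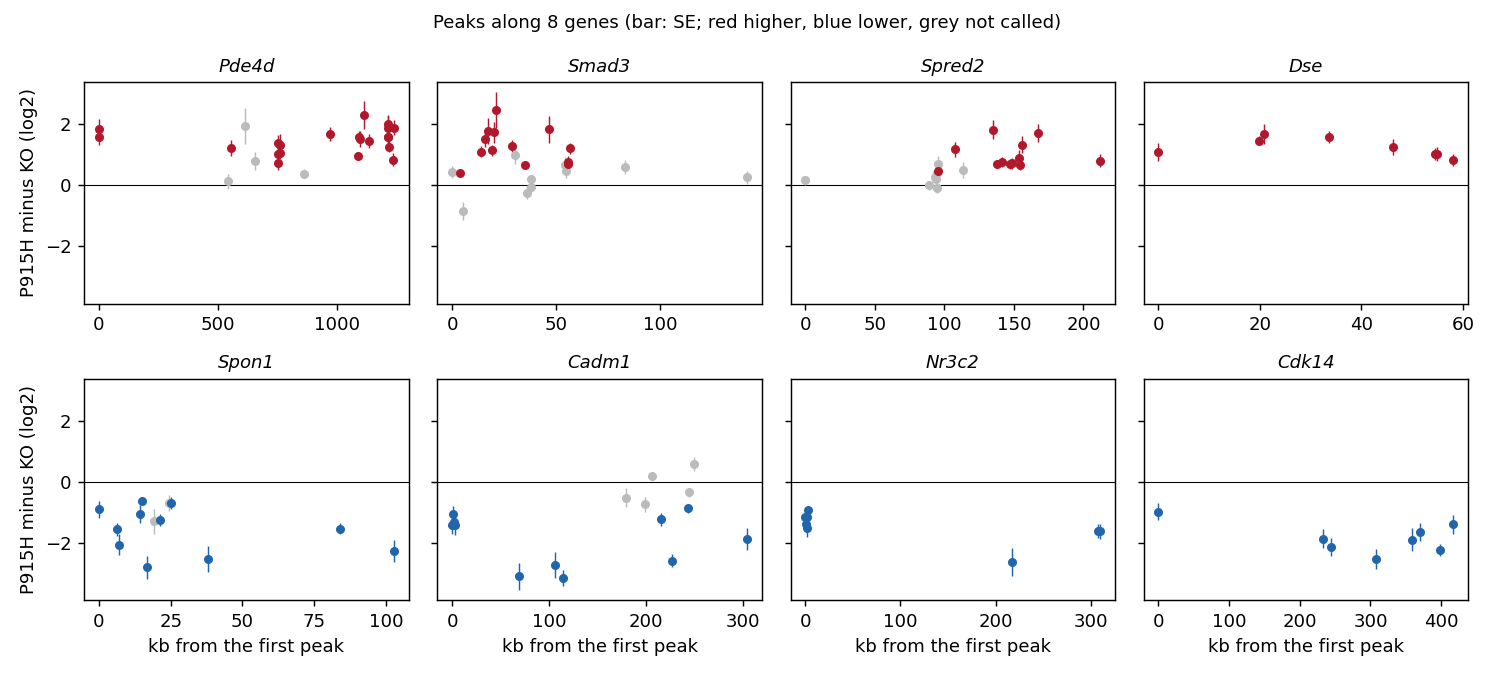
Difference between P915H and KO (log2, bar SE of the fit) for each peak along 4 genes with mostly higher peaks (top) and 4 with mostly lower ones (bottom), by distance in kb from the gene's first peak. Red and blue points were called and grey ones not. At Dse, Nr3c2 and Cdk14 each of the 8 peaks was called in the same direction.

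With each sample left out in turn, these genes kept called peaks but in varied number. Higher peaks ranged from 8 to 39 at Foxp1, 14 to 22 at Pde4d, 4 to 18 at Zfp608, 1 to 13 at Arid1b, 6 to 14 at Smad3, 3 to 12 at Spred2 and 3 to 8 at Dse. Lower peaks ranged from 12 to 20 at Zbtb20, 5 to 13 at Tcf4, 7 to 12 at Spon1, 7 to 11 at Cadm1 and 5 to 8 at both Nr3c2 and Cdk14. The fall was steepest at Arid1b and shallowest at Pde4d and Zbtb20 among those with at least 14 calls.

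Among peaks with a mean of at least 2 in the lower genotype, the largest differences reached 5-fold higher in P915H. The peak 7825 bp from Elovl5, a fatty acid elongase gene (chromosome 9, 77992344 to 77992564), read 2.86, 1.89 and 2.11 in KO, 3.70, 4.21 and 3.89 in WT and 4.27, 4.72 and 4.83 in P915H, a difference of 2.32 (SE 0.26, limma adjusted p = 0.00119). Others of this kind lay in or near Gpr176, a G protein-coupled receptor gene (2.28), Pde2a (2.17), Rrbp1 (2.14), Prune2 (2.09), Aff3, a nuclear factor gene of lymphoid cells (2.06), Map4k4 (2.02), Lpar3, a lysophosphatidic acid receptor gene (2.01), Sdc4 (2.00), Plcl2, a phospholipase-like gene of B cells (2.00), and Chrm3 (1.98). In the other direction, a peak in Mknk2, a kinase gene that phosphorylates the translation factor eIF4E (chromosome 10, 80668696 to 80668937), read 4.58, 5.28 and 4.56 in KO, 3.54, 3.35 and 3.62 in WT and 2.51, 2.00 and 2.44 in P915H. Its difference was -2.49 (SE 0.23, limma adjusted p = 0.00046), and Sidt2, a lysosomal membrane protein gene, had the strongest peak of this group, with 6.93, 7.06 and 6.71 in KO, 6.22, 6.19 and 6.11 in WT and 4.82, 4.72 and 5.15 in P915H.

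Lower calls were frequent at the Mup genes and on chromosome Y. Of 41 peaks assigned to the major urinary protein (Mup) genes on chromosome 4, 40 were lower and none higher, with sample medians of 3.19 to 3.44 in KO, 2.94 to 3.05 in WT and 1.58 to 1.83 in P915H. Of 134 peaks on chromosome Y from 5 Mb on, 50 were lower (37.3%) and 1 higher, and 29 of the 50 were among the 43 peaks from 90 Mb on. The sample medians over the 134 were 3.35 to 3.58, 2.94 to 3.26 and 1.99 to 2.44. The 15 peaks of Y below 5 Mb had no call, nor did the 8 peaks of its single-copy genes Kdm5d, Eif2s3y, Uty, Ddx3y and Usp9y. A peak 29171 bp from Mid1 on X read 5.67, 5.58 and 5.69 in KO, 5.31, 5.23 and 5.17 in WT and 3.33, 3.50 and 3.45 in P915H. The Mup genes and much of the long arm of Y are families of near-identical copies. Reads may be shared among such copies, so their values are uncertain. Whether the peaks of Y from 90 Mb on, or the peak near Mid1, have copies elsewhere was not checked. The number of copies of a sequence in a genotype and its openness cannot be told apart in these values. That applies to the Mup genes, to Y from 5 Mb on and to the peaks near Mid1 and Ptprc.

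Near Ptprc, the gene of the leukocyte phosphatase CD45, calls went both ways within a short stretch. Of the 560 peaks within 10 Mb, 48 were higher (8.57%) and 49 lower (8.75%), beside 8.97% and 6.55% of all peaks. A cluster of 10 higher peaks spanned 148 kb of Ptprc and Atp6v1g3, among them one (chromosome 1, 138157116 to 138157324) with 3.21, 2.86 and 3.29 in KO and 4.38, 4.52 and 4.44 in P915H. Another peak, 25102 bp from the gene (138037542 to 138037757), read 3.12, 3.54 and 3.27 in KO, 2.62, 2.31 and 2.15 in WT and -0.39, -0.51 and -0.07 in P915H. Over its 26 peaks the gene had 5 higher, 2 lower and a median difference of -0.02. At the end of the heavy chain locus, a cluster of 14 lower peaks spanned 73.2 kb assigned to Tmem121, Igha and Ighg2b (chromosome 12, 113232359 to 113305515), and 12 of the 29 peaks assigned to Tmem121 were lower and 1 higher.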

How the data were processed

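The deposited table holds log2 values, made by the authors, for 61540 peaks in 9 ATAC-seq samples, 3 each of KO, P915H and WT. Per the submitters' processing notes, limma, MACS2, Picard 2.18.12, SAMtools, Bowtie2 2.3.3 and Trim Galore 0.6.5 were used with build mm10, and their settings are not given in the sources used here. Antilogs of the deposited log2 values sum to 0.987 to 1.014 times the total that CPM values have, so the unit was read as log2 CPM of reads in peaks. Depth is unknown, and no counting interval is given. Each peak's mean over genotypes is equal for the 3 replicate numbers (largest difference 1.6e-14), so a replicate effect had been removed before deposit, which makes the spread within a genotype too small. The fit therefore had the replicate number as a term: limma 3.58.1 (R 4.3.3), all 9 samples, 4 residual degrees of freedom, an intensity trend, two-sided tests and Benjamini-Hochberg adjustment over all peaks at 0.05. No peak was filtered and no pseudocount added. The script was tested on simulated data.

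Peaks were assigned to protein-coding genes and immunoglobulin and T cell receptor segments of RefSeq (GRCm38.p6): to a start window they overlap, else to the gene body, else to the nearest gene within 100 kb, a link by position alone. Coordinates are as the files give them. The comparison, the lists and the rules were chosen with earlier results of these data known. Named peaks were the 12 largest called per direction with a mean of at least 2 in the lower group and no overlap, the smallest p of each list per direction, the genes with the most or the highest share of calls, 6 start peaks per direction, the largest clusters and the Tlr9 peaks. Some are not described, and a few genes and 1 list are not reported here. The genes given by their counts or medians within a list were picked with their values known. Alternatives changed normalization, the replicate term, filtering, a pseudocount of 1, weights, trend, thresholds, samples, sex chromosomes, cluster gaps and each sample left out. Lists without their leading gene were added after seeing the data. Tables and plots used matplotlib 3.10.9, NumPy 2.4.6, pandas 2.3.3 and Python 3.11.15.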

Additional observations from a re-analysis of the deposited data

How the results depend on the processing

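No named peak reversed under any alternative. The called ones had no overlap between the KO and P915H values, so a reversal was hardly possible and its absence tests nothing. Without the replicate block, which counts degrees of freedom that the removed replicate effect had used up, 17069 peaks were called (9626 higher and 7443 lower in P915H), with 1064 at gene starts, 1737 genes with at least 5 peaks and 3 calls, and 1792 clusters. Equal replicate numbers could not be checked as pairs, because removing the effect before deposit ties their deviations together. At an adjusted p under 0.01 the same counts were 3407 (1748 and 1659), 120, 212 and 184, and with a fold change of at least 2 they were 4679 (2695 and 1984), 114, 333 and 300. Sample weights gave 651 start peaks. Leaving out 1 sample at a time gave 3225 (without P915H replicate 2) to 10991 (without WT replicate 3) called peaks, 1413 to 6820 higher, 1772 to 4653 lower, 118 to 648 at starts, 204 to 1041 genes and 182 to 1017 clusters. A fit with a sample less has fewer degrees of freedom. Calls away from starts outnumbered those at starts, as a share, in each of these fits. Only the 6 KO and P915H samples gave 9473 calls, quantile normalization 9306, median centring 9932, a pseudocount of 1 9751, a filter on low values 9207, no intensity trend 8588 and leaving out X and Y 9519. Of the 115 named peaks, 4 to 12 lost their call without 1 of KO replicates 2 and 3 or the P915H samples, and none without KO replicate 1 or a WT sample. As depth is not known, weak peaks cannot be told from peaks with few reads.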
